A study of Mus musculus with 12 samples.

Results

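The genes described here are 7 genes of the cholesterol synthesis route, Hmgcs1, Idi1, Fdps, Fdft1, Sqle, Lss and the regulator Srebf2, which were chosen by name and followed in the gastrocnemius, a calf muscle, the liver and the gonadal fat pad, a white adipose tissue (WAT). Each of the 3 tables held all 7, among 22273 entries in gastrocnemius and 22252 in liver and in WAT. The list holds 6 enzymes and 1 transcription factor and no gene of cholesterol uptake, so genes of uptake, storage and export were read from a list of their own. The mice were C57BL/6J males in 2 genotypes. GRf/f mice carry floxed alleles of Nr3c1, the gene of the glucocorticoid receptor (GR), and GRmKO mice carry the same floxed alleles and lose functional GR in myofibres through Acta1-Cre, a Cre driven by the skeletal actin promoter. All mice carried the floxed alleles, and GR stayed intact by design in hepatocytes, adipocytes and the other cells of the muscle. From 8 weeks of age the mice drank 1% ethanol in water for 4 weeks, with 100 μg/mL corticosterone (CORT), the main glucocorticoid of mice, or without it (vehicle). Each of the 12 libraries was made from the pooled RNA of 3 mice, with 1 library per tissue, genotype and treatment. There was thus no replicate of any group, and no SD, SE or p-value could be had for any value.

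Cells make cholesterol from acetyl-CoA through mevalonate, isoprenoids, squalene and lanosterol. The enzymes of this route are controlled together by SREBP-2, the product of Srebf2, which is held in the endoplasmic reticulum by INSIG proteins when sterols are plentiful and is released with SCAP to the Golgi, cut and sent to the nucleus when sterols are scarce. Liver makes and exports much of the body's cholesterol, whereas adipocytes store a large pool of free cholesterol, and skeletal muscle is not counted among the main sites of synthesis.

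In the order of the route, Hmgcs1 encodes cytosolic HMG-CoA synthase, which feeds the mevalonate branch. Idi1 encodes isopentenyl diphosphate isomerase, and Fdps encodes farnesyl diphosphate synthase, which builds the precursor shared by sterols and prenyl groups. Fdft1 encodes squalene synthase, the first step committed to sterols, Sqle encodes squalene epoxidase, an oxygen-dependent control point, and Lss encodes lanosterol synthase, which closes the ring system. In the GENCODE M21 annotation of GRCm38, Hmgcs1 (ENSMUSG00000093930) lies on the plus strand of chr13:119690379-119708260 and Idi1 (ENSMUSG00000058258) on the plus strand of chr13:8885501-8892451. Fdps (ENSMUSG00000059743) lies on the minus strand of chr3:89093588-89101959 and Fdft1 (ENSMUSG00000021273) on the minus strand of chr14:63145150-63179578. Sqle (ENSMUSG00000022351) lies on the plus strand of chr15:59315077-59331192, Lss (ENSMUSG00000033105) on the plus strand of chr10:76531588-76557138 and Srebf2 (ENSMUSG00000022463) on the plus strand of chr15:82147181-82205379. Each entry carried a single transcript identifier, the same for a given gene in all 3 tissues, and the 7 genes have 2 to 5 protein-coding transcripts each in that annotation. Whether an entry holds 1 transcript or the whole gene was not settled by the files, so a shift between isoforms cannot be told apart from a change of the gene. The mouse genome also holds Idi2, a close relative beside Idi1, and how reads were shared between such copies was not checked.

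RefSeq promoter sequence of build GRCm38.p6 could be matched for 4 of the 7 genes, Hmgcs1, Idi1, Lss and Srebf2. The stretches below are shown because SREBP-2 acts on promoters of this route through sterol regulatory elements next to sites of the CCAAT-binding factor NF-Y. They end before both the RefSeq start site and the GENCODE gene start. Capitals mark the letters TCACNCCA, a form of the sterol regulatory element, and the letters CCAAT, which read ATTGG where they lie on the other strand. Both motifs were picked after the sequences had been seen, both strands were searched, and the 2 motifs did not overlap in these stretches.
Hmgcs1, chr13:119690101-119690350, plus strand: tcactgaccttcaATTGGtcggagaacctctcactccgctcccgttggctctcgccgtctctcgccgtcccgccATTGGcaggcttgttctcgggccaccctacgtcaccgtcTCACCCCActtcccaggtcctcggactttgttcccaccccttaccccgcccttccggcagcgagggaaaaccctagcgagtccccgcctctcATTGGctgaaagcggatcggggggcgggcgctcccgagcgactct
Srebf2, chr15:82147019-82147180, plus strand: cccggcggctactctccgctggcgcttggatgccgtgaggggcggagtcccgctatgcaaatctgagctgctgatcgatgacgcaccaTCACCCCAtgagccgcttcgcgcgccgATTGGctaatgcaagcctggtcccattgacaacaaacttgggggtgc
Lss, chr10:76531355-76531587, plus strand: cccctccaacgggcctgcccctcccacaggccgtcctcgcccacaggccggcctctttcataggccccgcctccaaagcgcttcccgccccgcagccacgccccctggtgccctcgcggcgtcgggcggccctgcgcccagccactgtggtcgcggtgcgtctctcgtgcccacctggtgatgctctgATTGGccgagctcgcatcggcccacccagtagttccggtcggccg
TCACNCCA stood once before Hmgcs1, at bases -137 to -130 from the RefSeq start site, and once before Srebf2, at bases -162 to -155. In the 250 bases before the start site it was found in 2 of the 4 promoters of the 7 genes and in 3.67% of all 32851 mouse promoters in the table. CCAAT was found in that window in 4 of the 4 and in 33.9% of all promoters. Among 14 further enzymes of the route, all of which could be matched, 13 held CCAAT and 1 held TCACNCCA. A listed gene was counted when any of its promoters held the letters, whereas the share of all promoters counts each promoter. The counts and shares are therefore not of like units. A match of letters describes the sequence and is not evidence of binding in these tissues.

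Levels are given as CPM, the counts scaled to a common library total, which lay between 1.94e+07 and 2.09e+07 estimated counts. A count of 3, the floor used here, equals 0.143 to 0.155 CPM, and all 7 genes were above it in all 12 libraries. Changes are differences of log2(CPM + 0.5), which understate the change of low genes, and a gene was called when it passed 2-fold, a log2 change of 1, in either direction. Intervals are 95% intervals of the counting error alone, on the ratio of the 2 libraries without the added 0.5 CPM. They do not cover differences between mice or between library preparations. Counts of calls are set beside the share of all tested genes called the same way. Genes tested were above 0 in all 4 libraries of a tissue with a mean of at least 1 CPM, namely 11799 genes in gastrocnemius, 10587 in liver and 12481 in WAT. All 7 genes passed this filter in every tissue.

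The targeted gene went with the labels: Nr3c1 in gastrocnemius stood at 113 CPM in GRf/f vehicle, 90.4 in GRf/f CORT, 46.4 in GRmKO vehicle and 35.5 in GRmKO CORT. The GR target Fkbp5 stood at 61.9, 355, 30.0 and 20.8 CPM in the same order, whereas in liver it stood at 47.7, 286, 70.2 and 147. Of the other GR targets read as checks, Tsc22d3 in gastrocnemius stood at 276, 157, 258 and 182 CPM, and Per1 at 80.6, 33.1, 19.7 and 29.2. In liver Per1 was listed at 0 in 2 of the 4 libraries. Each tissue held the markers of its main cell type, with 5 myofibre genes summing to between 72754 and 104419 CPM in gastrocnemius, 6 hepatocyte genes to between 21438 and 26521 in liver and 6 adipocyte genes to between 22508 and 28803 in WAT. Some markers were not particular to a tissue. The 6 hepatocyte genes summed to between 4891 and 5828 CPM in WAT, nearly all of it Cyp2e1, and the myofibre gene Acta1 stood at 37.4, 113, 199 and 103 CPM in WAT, where the other 4 myofibre genes were at most 2.80 CPM. Of 3 epididymal genes Crisp1 and Lcn5 were at 0 in all WAT libraries and Adam28 stood between 0.532 and 1.27 CPM. Genes of other cell types did move with treatment or genotype, and their values are given beside the results they accompany. In bulk tissue, fewer cells of a type and less RNA per cell cannot be told apart.

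WAT carried the highest levels of most of these genes. For 5 of the 7 the lowest WAT library lay above the highest library of both other tissues, the exceptions being Fdps and Fdft1. The same count was not made over all genes, so whether 5 of 7 is unusual is not known. In GRf/f vehicle libraries Sqle was 13.1 times as high in WAT as in gastrocnemius, where it rests on 17.3 estimated counts, and Lss 7.63 times, Hmgcs1 6.77 times and Idi1 4.94 times. The distance was smallest for Fdft1, at 1.32 times. Fdps stood at 40.3 CPM in WAT and 42.3 in liver, levels whose intervals overlapped. These ratios set libraries of different tissues side by side on the library total alone.

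Within a tissue the order of the genes can be read only per length, here as CPM per kilobase of the listed transcript. In GRf/f vehicle WAT the order was Hmgcs1 at 43.4 CPM per kilobase, Fdps at 32.6, Fdft1 at 27.6, Idi1 at 15.4, Srebf2 at 9.84, Lss at 4.76 and Sqle at 4.14, and the intervals of the last pair overlapped. In GRf/f vehicle liver the order was Fdps at 34.2, Fdft1 at 13.4, Idi1 at 12.4, Hmgcs1 at 7.78, Srebf2 at 3.85, Lss at 2.39 and Sqle at 1.11, with overlapping intervals for Fdft1 and Idi1. In GRf/f vehicle gastrocnemius the order was Fdft1 at 20.9, Fdps at 13.7, Hmgcs1 at 6.41, Srebf2 at 5.05, Idi1 at 3.12, Lss at 0.625 and Sqle at 0.315, with overlapping intervals for the last pair. In these GRf/f vehicle libraries Sqle and Lss, the enzymes on either side of squalene epoxide, were thus the lowest of the 7 in all 3 tissues. Hmgcs1 moved from the middle of the order in muscle and liver to its top in fat. In WAT under CORT Lss stood above Srebf2, at 10.3 against 8.22 in GRf/f and 8.10 against 7.29 in GRmKO.

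**Figure D1:**
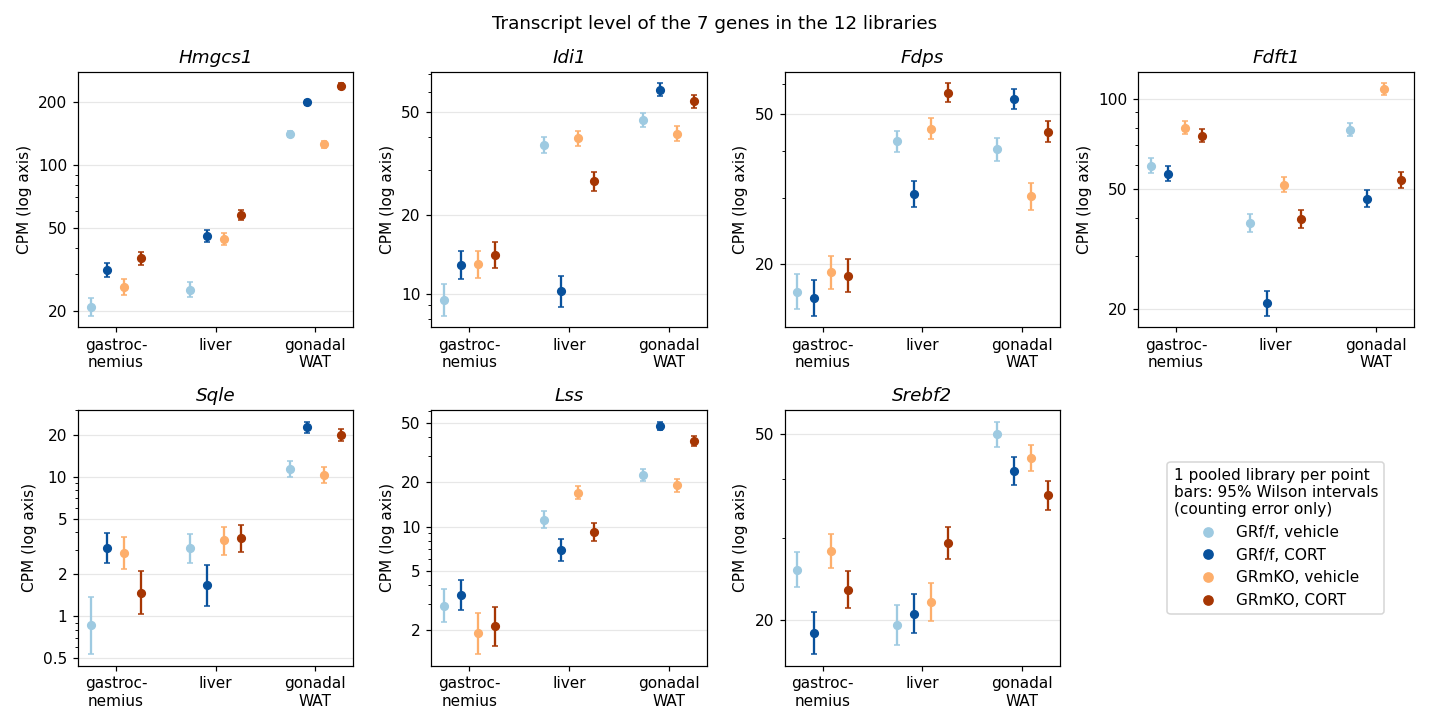
Each panel plots 1 gene in CPM on a log axis, with a point per pooled library, the 3 tissues along the horizontal axis and 95% Wilson intervals of the counting error as bars. Idi1 in liver drops to 10.2 CPM in GRf/f CORT, while Hmgcs1, Idi1, Fdps, Sqle and Lss in gonadal WAT stand above both vehicle points in both CORT libraries.

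The first question in liver, a tissue whose own GR is intact in both genotypes, was how the sterol route differed between CORT and vehicle. In GRf/f liver CORT went with lower levels of most of the route and a higher level of its first gene here, Hmgcs1. Of the 7 genes 1 was called lower, Idi1, against 6.05% of all tested genes, and 0 were called higher, against 6.09%. The median log2 change of the 7 was -0.65 and that of all tested genes 0.01.

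Idi1 stood at 37.5 CPM in GRf/f vehicle, 10.2 in GRf/f CORT, 39.7 in GRmKO vehicle and 27.1 in GRmKO CORT. The GRf/f CORT library was far below the other 3, and Idi1 fell by 1.83 on the log2 scale with CORT in GRf/f (interval -2.10 to -1.65). In GRmKO the log2 change was -0.54 (interval -0.71 to -0.40), which did not reach 2-fold.

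Fdft1 was likewise lowest in GRf/f CORT, at 38.4, 20.8, 51.7 and 39.6 CPM, with log2 changes of -0.87 in GRf/f and -0.38 in GRmKO. Fdps stood at 42.3, 30.8, 45.7 and 56.9 CPM, so that the CORT library was the lowest in GRf/f and the highest in GRmKO. Its log2 change with CORT was -0.45 in GRf/f (interval -0.61 to -0.31) and 0.31 in GRmKO (interval 0.19 to 0.44), intervals that lie on opposite sides of 0 but rest on 1 library each.

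Sqle stood at 3.06, 1.66, 3.49 and 3.61 CPM, from 34.0 to 75.0 estimated counts, and was lowest in GRf/f CORT. Its interval in GRf/f, -1.52 to -0.26, was wide because of these few counts. Lss stood at 11.1, 6.93, 16.9 and 9.17 CPM and was lower with CORT in both genotypes, by a log2 change of -0.65 in GRf/f and -0.85 in GRmKO, neither past 2-fold. Idi1, Fdft1 and Lss were thus the members whose liver level was lower with CORT in both genotypes.

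Hmgcs1 went the other way. It stood at 25.2, 45.6, 44.2 and 57.4 CPM, lowest in GRf/f vehicle, with a log2 change with CORT of 0.84 in GRf/f (interval 0.70 to 1.01) and 0.37 in GRmKO. Srebf2 itself stood at 19.5, 20.7, 21.9 and 29.3 CPM, and its log2 change was 0.08 in GRf/f (interval -0.12 to 0.28) and 0.41 in GRmKO (interval 0.24 to 0.60). The level of the regulator's transcript was therefore close to flat in GRf/f, where 5 of the 6 enzymes were lower.

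With CORT in GRmKO liver 0 of the 7 were called in either direction, against 2.95% of all tested genes higher and 2.94% lower. The median was 0.04 for the 7 and 0.06 for all tested genes, and 4 of the 7 lay above 0, as did 6007 of 10587 tested genes.

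The second question in liver was how the same genes differed between the genotypes, that is, with and without GR in muscle fibres. All 7 were higher in GRmKO than in GRf/f under each treatment, from a log2 difference of 0.08 for Idi1 to 0.80 for Hmgcs1 under vehicle and from 0.33 for Hmgcs1 to 1.37 for Idi1 under CORT. Under vehicle the counting intervals of Idi1, Fdps, Sqle and Srebf2 included 0, and under CORT none did. Under vehicle 0 of 7 were called, against 1.32% of all tested genes higher and 1.08% lower. Under CORT 1 was called higher, Idi1, with an interval of 1.17 to 1.64, against 2.64% of all tested genes, and 0 were called lower, against 2.3%. The median of the 7 was 0.17 under vehicle and 0.88 under CORT, beside 0.03 and 0.08 for all tested genes. Of the 10587 tested genes 5787 lay above 0 under vehicle and 6272 under CORT. Sqle at 0.93, Fdft1 at 0.91 and Fdps at 0.88 under CORT came close to 2-fold without passing it.

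The comparison of CORT with vehicle in GRf/f and that of the genotypes under CORT share the GRf/f CORT library, so its values enter both. That library was the lowest of the 4 for 5 of the 7 genes and for 17 of 20 enzymes of the route, while it was the lowest for 34.5% of all tested genes. With 1 library per group, what sets this pool of 3 mice apart from the others cannot be told apart from the effect of treatment and genotype. Summed levels of 5 macrophage markers moved along with it, at 130 CPM in GRf/f vehicle, 34.6 in GRf/f CORT, 98.1 in GRmKO vehicle and 56.9 in GRmKO CORT. Each of the 5 was lowest in GRf/f CORT, and their part in the result was not tested. The 3 endothelial markers summed to 54.7, 33.9, 55.2 and 47.6 CPM, also lowest in GRf/f CORT, where Kdr and Cdh5 were lowest and Pecam1 was not, and their part was not tested either. Hepatocyte markers summed to 25419, 21726, 26521 and 21438 CPM, a sum that did not single out that library. The single hepatocyte markers went both ways with CORT, with log2 changes from -1.30 to 2.08 in GRf/f and from -1.17 to 0.78 in GRmKO. Their part was not tested.

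The rest of the synthesis route in liver covered 14 further enzymes, a list chosen for their place in the pathway. Together with the 6 enzymes described above, 7 of 20 were called lower and 0 higher with CORT in GRf/f, against 6.05% and 6.09% of all tested genes. Of the 20 enzymes 18 lay below 0, beside 5216 of 10587 tested genes, and the median was -0.66. Msmo1, the sterol C4 methyl oxidase, stood at 45.1, 13.8, 59.8 and 26.6 CPM and fell in both genotypes, by 1.67 and 1.16 on the log2 scale. Nsdhl, the dehydrogenase of the same demethylation complex, stood at 26.8, 9.57, 25.3 and 18.4 CPM and fell by 1.44 in GRf/f, with a log2 change of -0.45 in GRmKO. Tm7sf2, a sterol C14 reductase, fell by 1.37 and Acat2, the cytosolic thiolase at the entry of the route, by 1.001 in GRf/f. The 2 of 20 above 0 were Hmgcs1, at 0.84, and Mvd, at 0.33, the latter the decarboxylase of the mevalonate branch and named after its values were seen. With CORT in GRmKO 2 of 20 were called lower and 0 higher, against 2.94% and 2.95% of all tested genes, with a median of -0.34.

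Between the genotypes under CORT 3 of the 20 enzymes were called higher in liver and 0 lower, against 2.64% and 2.3% of all tested genes. Of the 20 enzymes 19 lay above 0, beside 6272 of 10587 tested genes, and the median was 0.71. Acat2 was higher by 1.46, at 21.4 CPM in GRmKO against 7.42 in GRf/f. Under vehicle 0 were called, against 1.32% of all tested genes higher and 1.08% lower. There 17 lay above 0, beside 5787 of 10587 tested genes, with a median of 0.21.

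**Figure D2:**
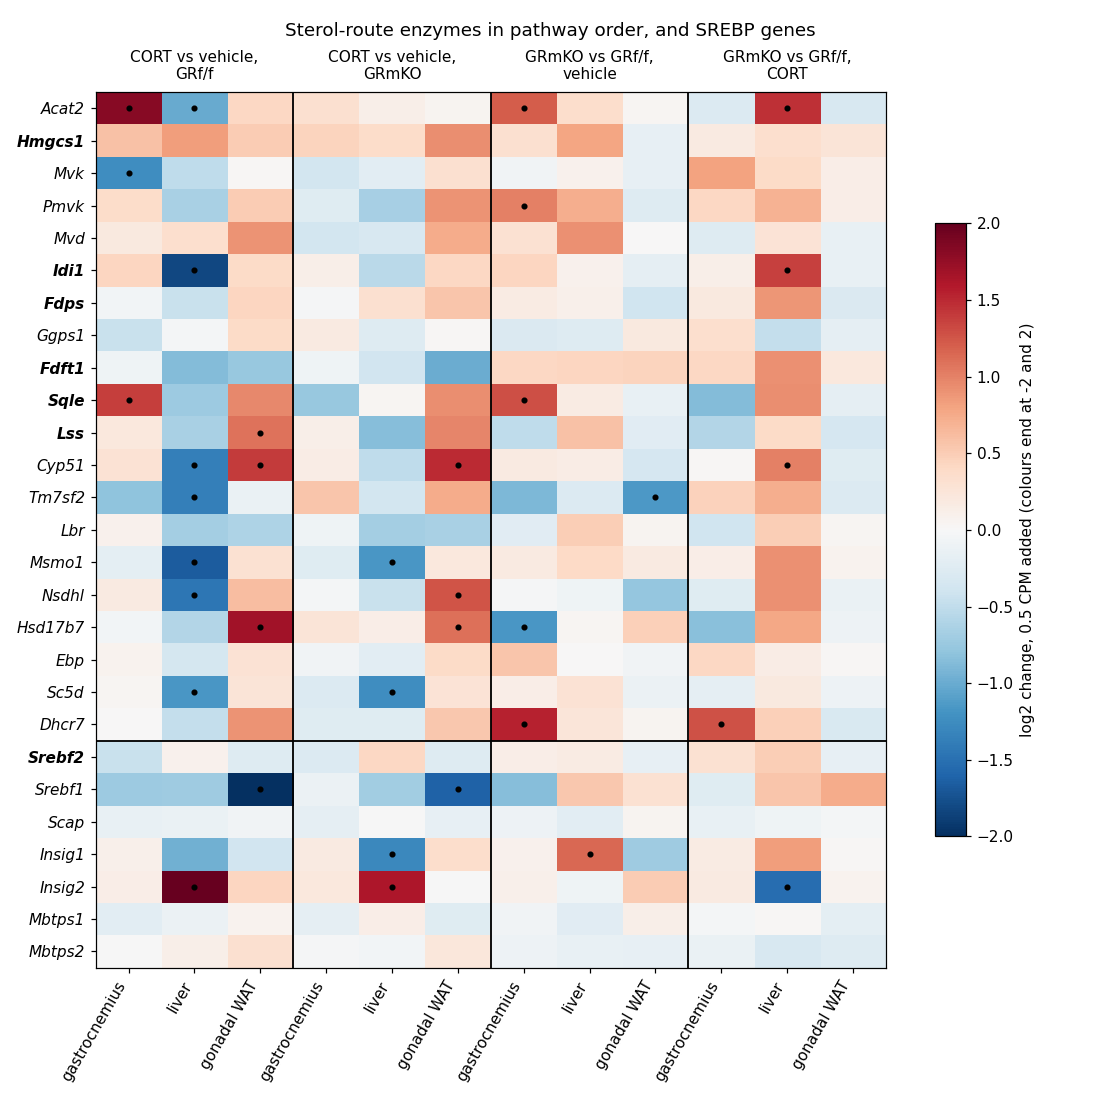
Colours give log2 changes of the 20 enzymes in the order of the route, then Srebf2 and the genes that control SREBP, in 12 comparisons grouped by contrast and tissue. Dots mark changes past 2-fold and bold type the 7 genes described here. The liver column of CORT in GRf/f holds 7 enzymes called lower, beside 6.05% of all tested genes. The WAT columns of CORT hold 3 called higher in each genotype, beside 5.86% of all tested genes in GRf/f and 3.46% in GRmKO.

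Among the 6 genes that control SREBP, the insulin- and sterol-regulated INSIG pair stood out in liver by size. Insig2, whose protein holds SCAP and SREBP in the endoplasmic reticulum, stood at 40.6 CPM in GRf/f vehicle, 340 in GRf/f CORT, 38.1 in GRmKO vehicle and 118 in GRmKO CORT. It rose by 3.05 on the log2 scale with CORT in GRf/f and by 1.62 in GRmKO, and under CORT it was lower in GRmKO, at -1.52. The library with the highest Insig2, GRf/f CORT, was the lowest for 17 of 20 enzymes and for 34.5% of all tested genes. GRmKO CORT, with the next highest Insig2, was the lowest for 1 of 20 enzymes and for 14.1% of all tested genes. GRmKO CORT was the highest library for 5 of 20 enzymes and for 29.5% of all tested genes. Any link between Insig2 and the enzymes was not tested.

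Insig1, itself a target of SREBP, stood at 128, 65.4, 285 and 117 CPM. It fell by 1.28 with CORT in GRmKO, stayed short of 2-fold in GRf/f at -0.96, and was higher in GRmKO under vehicle, at 1.15. The transcripts of Scap, Mbtps1 and Mbtps2, the escort and the proteases that release SREBP, were not called in any liver comparison, and nor was Srebf1. The list as a whole had 1 called higher and 0 lower with CORT in GRf/f, 1 and 1 with CORT in GRmKO, 1 and 0 between the genotypes under vehicle, and 0 and 1 under CORT. In that order, all tested genes were called at 6.09% and 6.05%, 2.95% and 2.94%, 1.32% and 1.08%, and 2.64% and 2.3%. The medians of the list lay between -0.13 and -0.03.

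Of 14 genes of uptake, storage and export all were tested in liver. With CORT in GRf/f 1 was called higher and 3 lower, against 6.09% and 6.05% of all tested genes, with a median of -0.27. Abcg8 and Abcg5, whose products form the exporter of sterols into bile, stood at 104, 27.1, 131 and 61.4 CPM and at 92.3, 42.3, 146 and 74.6 CPM. Abcg8 fell by 1.92 in GRf/f and by 1.08 in GRmKO, and Abcg5 fell by 1.12 in GRf/f. Stard4, a carrier of cholesterol between membranes, fell by 1.25 in GRf/f, at 62.5 CPM under vehicle and 26.0 under CORT. Nr1h2, the gene of liver X receptor beta, was called higher with CORT in GRf/f, at 1.18, and in GRmKO under vehicle, at 1.88, from a GRf/f vehicle level of 3.94 CPM that stood apart from 9.59, 15.9 and 13.7 in the other libraries. With CORT in GRmKO 0 were called higher and 1 lower, against 2.95% and 2.94% of all tested genes. Between the genotypes 1 was called higher and 0 lower under each treatment, against 1.32% and 1.08% under vehicle and 2.64% and 2.3% under CORT. Under CORT 12 of the 14 lay above 0 in GRmKO, beside 6272 of 10587 tested genes, with a median of 0.46.

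In gonadal WAT, where GR is also intact in both genotypes, the CORT libraries held higher levels of 5 of the 6 enzymes than the vehicle library of the same genotype, and a lower level of Fdft1, in GRf/f and in GRmKO. With CORT in GRf/f 1 of the 7 was called higher, Lss, against 5.86% of all tested genes, and 0 lower, against 8.09%. With CORT in GRmKO 0 were called, against 3.46% higher and 5.73% lower, but Hmgcs1, Sqle, Lss and Fdft1 stopped just short of 2-fold. When the libraries were scaled by TMM or by median ratios, which moved the median of all genes in GRmKO by 0.12 or 0.13, Hmgcs1, Sqle and Lss passed 2-fold in GRmKO and Sqle joined Lss in GRf/f. Under TMM factors 4.49% of all tested genes were called higher and 4.35% lower in GRmKO (4.51% and 4.29% under median ratios), and 6.75% were called higher in GRf/f (6.76%). Medians of the 7 were 0.44 in GRf/f and 0.56 in GRmKO, beside -0.06 and -0.13 for all tested genes.

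Lss stood at 22.2 CPM in GRf/f vehicle, 47.9 in GRf/f CORT, 19.0 in GRmKO vehicle and 37.8 in GRmKO CORT. Both CORT libraries were above both vehicle libraries, with a log2 change of 1.09 in GRf/f (interval 0.94 to 1.27) and 0.97 in GRmKO (interval 0.81 to 1.17). Sqle, the preceding enzyme, had the same pattern at 11.4, 22.7, 10.3 and 20.04 CPM, with log2 changes of 0.96 and 0.93.

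Hmgcs1 had the highest level of the 7 in this tissue, at 141, 200.01, 126 and 240 CPM. Its log2 change with CORT was 0.50 in GRf/f (interval 0.44 to 0.58) and 0.92 in GRmKO (interval 0.857 to 0.998), intervals that did not overlap as far as counting error goes. Idi1 stood at 46.7, 61.0, 41.4 and 55.1 CPM and Fdps at 40.3, 54.7, 30.3 and 44.9 CPM. For both genes the CORT libraries lay above both vehicle libraries, with log2 changes of 0.38 and 0.41 for Idi1 and 0.44 and 0.56 for Fdps.

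Fdft1, which lies between these enzymes in the route, went against them at 78.8, 46.4, 108 and 53.7 CPM. Its log2 change with CORT was -0.76 in GRf/f (interval -0.88 to -0.65) and -0.997 in GRmKO (interval -1.11 to -0.90), the latter just short of 2-fold. Squalene synthase transcript was therefore lower in both CORT libraries than in both vehicle libraries while Sqle and Lss, the next enzymes, were higher. Srebf2 stood at 49.97, 41.7, 44.5 and 37.0 CPM, with a log2 change of -0.26 in each genotype, so the transcript of the regulator was not higher where most enzymes were.

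Between the genotypes the WAT values of the 7 were close. None was called under vehicle, against 1.13% of all tested genes higher and 1.03% lower, or under CORT, against 1.34% and 1.24%. The log2 differences ran from -0.41 for Fdps to 0.45 for Fdft1 under vehicle and from -0.34 for Lss to 0.26 for Hmgcs1 under CORT, with medians of -0.17 in both. Under vehicle 6 of the 7 were lower in GRmKO, and under CORT 5, beside 5543 and 6876 of 12481 tested genes. The GRmKO vehicle library was the lowest WAT library for 5 of the 7 genes, for 12 of 20 enzymes and for 15.2% of all tested genes.

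Of the 20 enzymes 3 were called higher and 0 lower in WAT with CORT in GRf/f, against 5.86% and 8.09% of all tested genes. There 17 lay above 0, beside 5709 of 12481 tested genes, and the median was 0.43. In GRmKO 3 were called higher and 0 lower, against 3.46% and 5.73%. Here 18 lay above 0, beside 4720 of 12481 tested genes, and the median was 0.55. Under TMM and median-ratio factors more of the 20 were called higher in GRmKO, beside 4.49% and 4.51% of all tested genes, as given at the end. Cyp51, the lanosterol demethylase that follows Lss, stood at 36.3, 96.5, 28.8 and 81.9 CPM and rose in both genotypes, by 1.40 and 1.49. Hsd17b7, a ketoreductase of the later route, rose by 1.69 and 1.11, and Nsdhl rose by 1.26 in GRmKO, with 0.61 in GRf/f. Below 0 in both genotypes were Fdft1 and Lbr, the latter a sterol reductase that is also a receptor of the nuclear lamina, at -0.62 and -0.65 and named after its values were seen. Between the genotypes Tm7sf2 was called lower in GRmKO under vehicle, at -1.15, and no other enzyme was called under either treatment. All tested genes were called higher and lower at 1.13% and 1.03% under vehicle and 1.34% and 1.24% under CORT.

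Srebf1, the gene of SREBP-1 and of fatty acid synthesis rather than the sterol route, fell with CORT in WAT, by 2.06 in GRf/f and 1.62 in GRmKO, at 219, 52.2, 269 and 87.4 CPM. It was the 1 gene of 6 in the SREBP list that was called in WAT, against 8.09% of all tested genes lower with CORT in GRf/f and 5.73% in GRmKO. The medians of the list were 0.00 and -0.08 with CORT and 0.09 and -0.01 between the genotypes. Of the 14 genes of uptake, storage and export 12 were tested. With CORT 2 were called lower in GRf/f and 1 in GRmKO, against 8.09% and 5.73% of all tested genes. None was called higher, against 5.86% and 3.46%, and the median was 0.13 in each genotype. Mylip, the ubiquitin ligase that marks lipoprotein receptors for breakdown, fell by 1.02 and 1.30, and Scarb1, the receptor of high-density lipoprotein, fell by 1.16 in GRf/f, with -0.42 in GRmKO. Between the genotypes 0 of 12 were called, against 1.13% higher and 1.03% lower under vehicle and 1.34% and 1.24% under CORT.

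Markers of macrophages and of endothelium moved with CORT in the same WAT libraries. The 5 macrophage markers summed to 763 CPM in GRf/f vehicle, 1841 in GRf/f CORT, 968 in GRmKO vehicle and 1838 in GRmKO CORT, and each of the 5 was higher in both CORT libraries than in both vehicle libraries. The 3 endothelial markers summed to 514, 199, 482 and 270 CPM, and the 6 adipocyte markers to 26696, 23120, 28803 and 22508 CPM. The single adipocyte markers went both ways with CORT, with log2 changes from -3.95 to 2.95 in GRf/f and from -3.16 to 1.31 in GRmKO. What part the markers of these cell types had in the values of the sterol genes was not tested.

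**Figure D3:**
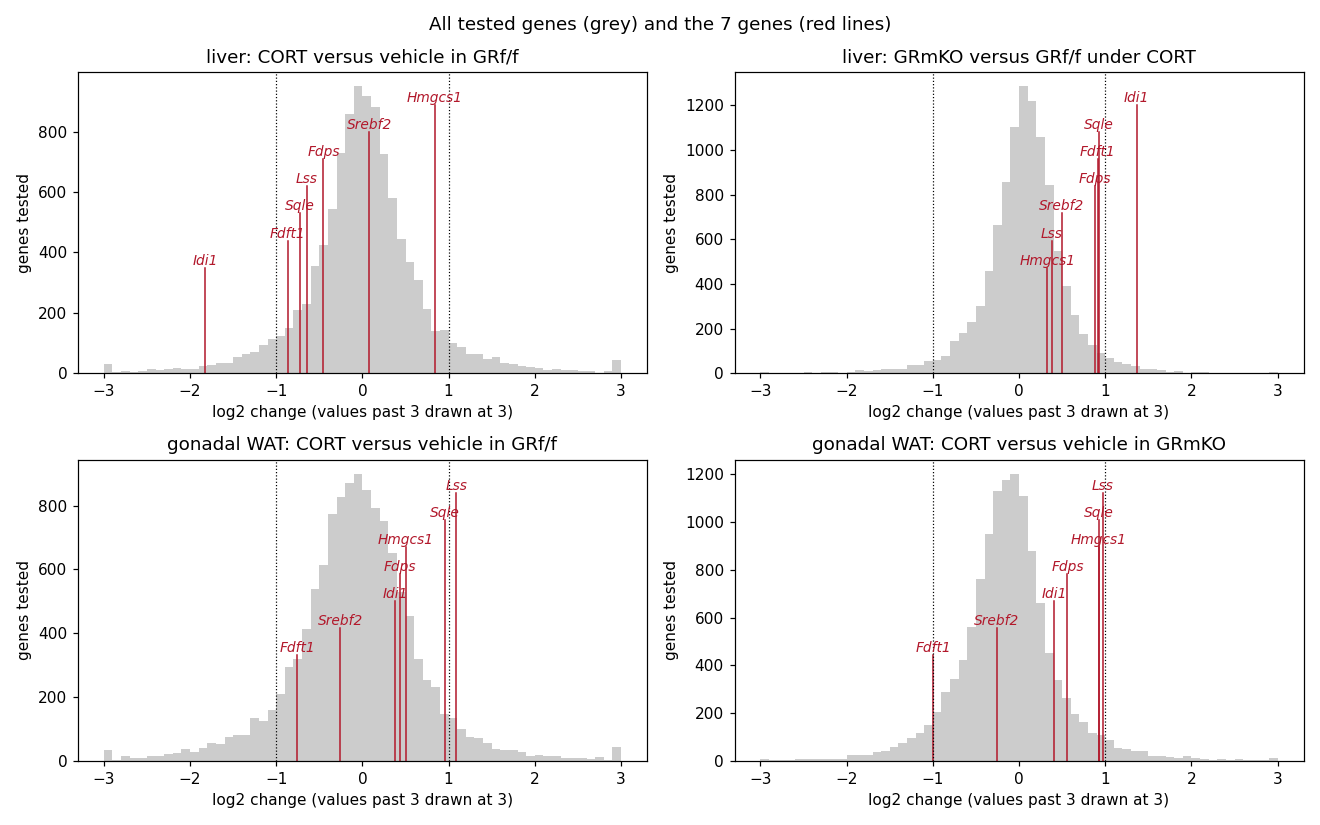
Grey bars count all tested genes by log2 change in 4 comparisons, and red lines mark the 7 genes, with dotted lines at 2-fold. In liver with CORT in GRf/f Idi1 lies at -1.83 and Hmgcs1 at 0.84, and between the genotypes under CORT all 7 lie above 0. In gonadal WAT Fdft1 and Srebf2 lie below 0 and the other 5 above it in both genotypes.

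In gastrocnemius, the tissue in which GR was deleted, Sqle was the only gene of the 7 that was called in any of the 4 comparisons. With CORT in GRf/f 1 was called higher, Sqle, against 3.34% of all tested genes, and 0 lower, against 4.98%. With CORT in GRmKO 0 were called, against 1.53% higher and 5.02% lower. Between the genotypes 1 was called higher under vehicle, again Sqle, against 4.73%, and 0 lower, against 3.27%. Under CORT 0 were called, against 4.58% higher and 5.23% lower. In the order of these comparisons, medians of the 7 were 0.21, -0.03, 0.32 and 0.19, beside -0.09, -0.09, 0.07 and 0.04 for all tested genes. The median in GRmKO with CORT turned from -0.03 to 0.12 and 0.11 under TMM and median-ratio scaling, which moved all genes by 0.15 and 0.13. In that comparison 1.99% of all tested genes were called higher and 3.59% lower under TMM, and with CORT in GRf/f 4.09% and 4.03% under median ratios.

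Sqle stood at 0.870 CPM in GRf/f vehicle, 3.09 in GRf/f CORT, 2.85 in GRmKO vehicle and 1.48 in GRmKO CORT. These levels rest on 17.3, 59.9, 57.2 and 30.0 estimated counts. Both calls turn on the low GRf/f vehicle library, which the 2 comparisons share, and the log2 changes of 1.39 (interval 1.06 to 2.72) and 1.29 (interval 0.93 to 2.60) have wide intervals. NOISeq, a method for libraries without replicates that sets a change against the noise of all genes, called neither. In GRmKO the log2 change with CORT was -0.76 (interval -1.64 to -0.28), opposite in sign to that in GRf/f.

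Hmgcs1 stood at 20.8, 31.4, 26.0 and 35.8 CPM, the higher library within each genotype being CORT, with log2 changes of 0.58 (interval 0.41 to 0.77) and 0.45 (interval 0.30 to 0.62). Idi1 stood at 9.45, 12.9, 12.96 and 14.04 CPM and was lowest in GRf/f vehicle. Fdps, at 16.9, 16.3, 19.1 and 18.7 CPM, varied least of the 7 in this tissue, its highest library being 1.17 times its lowest.

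Fdft1, at 59.8, 56.3, 80.0 and 75.3 CPM, separated by genotype rather than by treatment. It was higher in GRmKO by a log2 difference of 0.42 under each treatment (intervals 0.31 to 0.53), with -0.09 for CORT in each genotype. The CORT value in GRmKO changed sign under TMM and median-ratio scaling, so no direction is read from these small changes. Lss stood at 2.91, 3.45, 1.90 and 2.12 CPM and was lower in GRmKO by -0.51 and -0.59, intervals reaching from -1.26 to -0.01 and from -1.30 to -0.14. Srebf2 stood at 25.7, 18.8, 28.2 and 23.2 CPM, and its log2 change with CORT was -0.44 (interval -0.65 to -0.25) in GRf/f and -0.27 (interval -0.46 to -0.10) in GRmKO.

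The 20 enzymes together had no common direction in gastrocnemius. With CORT in GRf/f 2 were called higher and 1 lower, against 3.34% and 4.98% of all tested genes, with a median of 0.09. With CORT in GRmKO 0 were called, against 1.53% and 5.02%, with a median of -0.05. Between the genotypes 4 were called higher and 1 lower under vehicle, against 4.73% and 3.27%. Under CORT 1 was called higher and 0 lower, against 4.58% and 5.23%. The medians were 0.18 and 0.13. NOISeq called none of the 20 in any gastrocnemius comparison, against 0.58% to 2.17% of all genes in a direction. Acat2 stood at 1.18, 5.39, 3.40 and 4.37 CPM and was called higher with CORT in GRf/f, at 1.81, and in GRmKO under vehicle, at 1.22, so that its GRf/f vehicle library was low as for Sqle. Mvk, mevalonate kinase, fell by 1.24 with CORT in GRf/f. Dhcr7, the enzyme of the final reduction to cholesterol, stood at 2.23, 2.26, 7.43 and 6.18 CPM and was higher in GRmKO under both treatments, by 1.54 and 1.28. Hsd17b7, at 9.77, 9.34, 4.11 and 5.02 CPM, was lower in GRmKO under vehicle, at -1.16, with -0.83 under CORT.

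None of the 6 SREBP genes was called in gastrocnemius, against 1.53% to 5.23% of all tested genes in a direction of a comparison. Their medians lay between -0.08 and -0.07. Of 14 genes of uptake, storage and export 12 were tested. The calls were 0 higher and 1 lower with CORT in GRf/f, 0 and 2 in GRmKO, 1 and 0 between the genotypes under vehicle and 2 and 1 under CORT, with medians of -0.23, -0.39, 0.13 and -0.12. In that order, all tested genes were called at 3.34% and 4.98%, 1.53% and 5.02%, 4.73% and 3.27%, and 4.58% and 5.23%. Lipa, the lysosomal acid lipase that frees cholesterol from its esters, stood at 14.6, 4.51, 21.3 and 13.2 CPM, fell by 1.59 with CORT in GRf/f and was higher in GRmKO under CORT, at 1.45. Scarb1 and Abcg1, the latter an exporter of cholesterol, fell with CORT in GRmKO, by 1.11 and 1.09. Soat2, at 0.465 to 1.70 CPM, was lower in GRmKO under CORT, at -1.19, from few counts.

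Adipocyte and macrophage markers moved between the gastrocnemius libraries. The 6 adipocyte markers summed to 232 CPM in GRf/f vehicle, 589 in GRf/f CORT, 333 in GRmKO vehicle and 455 in GRmKO CORT. With CORT in GRf/f muscle Adipoq, Plin1, Fabp4 and Lep were called higher, Lep by 5.23, Cfd was called lower at -1.22, and Cidec was not tested because it was at 0 in GRmKO vehicle. In GRf/f CORT muscle the 6 stood at 1.68% (Lep) to 5.91% (Cfd) of their levels in the WAT of the same group. In GRf/f vehicle muscle the shares ran from 0.278% (Lep) to 1.19% (Fabp4). Cfd rose in share though it fell in muscle, because its WAT level fell more. At these shares the WAT level of Hmgcs1 would give 0.392 to 1.67 CPM in GRf/f vehicle muscle and 3.35 to 11.8 in GRf/f CORT. Its measured levels were 20.8 and 31.4 CPM. In GRf/f CORT Sqle would have 0.380 to 1.34 CPM and Lss 0.802 to 2.83, beside 3.09 and 3.45 measured. In GRmKO muscle the shares ran from 0% (Cidec) to 2.01% (Fabp4) under vehicle and from 0.981% (Lep) to 4.78% (Cfd) under CORT. Hmgcs1 would have 0 to 2.53 and 2.35 to 11.5 CPM there, beside 26.0 and 35.8 measured. Macrophage markers summed to 113, 116, 408 and 156 CPM and were highest in GRmKO vehicle. The GRmKO vehicle library was the highest for 3 of the 7 genes and for 36.5% of all tested genes. The 6 hepatocyte genes summed to 40.2, 105, 63.8 and 129 CPM. Ahsg, Apoa2, Fgb, Hpx and Cyp3a11 were higher in both GRmKO muscle libraries than in both GRf/f libraries, up to 10.8 CPM for Cyp3a11, whereas Cyp2e1, which made up most of the sum, was highest in GRf/f CORT. What part adipocytes, macrophages or hepatocyte RNA had in these values was not tested.

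The response to CORT can also be set side by side in the 2 genotypes, which share no library. The change in GRmKO minus the change in GRf/f, on the log2 scale, was 1.28 for Idi1 in liver and 0.77 and 0.76 for Fdps and Sqle there, and -0.47 for Hmgcs1. In WAT these differences ran from -0.24 for Fdft1 to 0.42 for Hmgcs1, and in gastrocnemius from -0.31 for Idi1 to 0.17 for Srebf2 with Sqle apart at -2.15. With 1 library per group no test of a difference between the genotypes could be made.

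**Figure D4:**
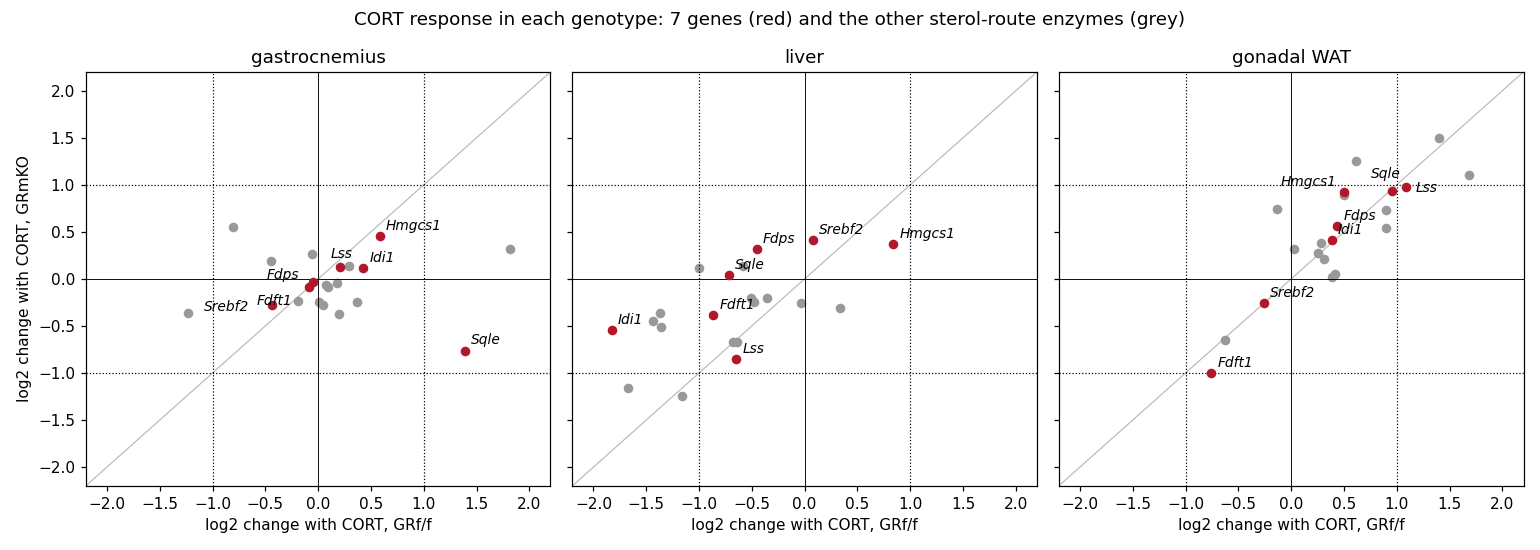
Each panel plots the log2 change with CORT in GRf/f (horizontal) against that in GRmKO (vertical) for the 7 genes in red and 14 further enzymes in grey, with dotted lines at 2-fold and a grey line of equal change. In liver 18 of 20 enzymes lie left of 0, beside 5216 of 10587 tested genes. Idi1 in liver is above the line of equal change at -1.83 and -0.54, whereas in gonadal WAT the red points lie near the line.

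Across the 12 libraries, with each tissue centred on its own mean, the 7 genes did not form a single pattern. Pearson's r between a gene and the mean of the other 6 was 0.79 for Fdps, 0.77 for Idi1, 0.67 for Sqle, 0.47 for Lss, 0.20 for Hmgcs1, 0.03 for Fdft1 and -0.05 for Srebf2. The genes whose pattern was most like the mean of the 7, among 6726 ranked with a mean of at least 5 CPM in each tissue, were Dpp7 (r = 0.92), Shb (0.90), Spry4 (0.89), Them4 (0.89) and Pmvk (0.88). Pmvk, phosphomevalonate kinase, is itself an enzyme of the route. In liver it stood at 8.98, 5.57, 15.2 and 9.37 CPM and in WAT at 47.6, 67.6, 39.6 and 74.0 CPM. Spry4, an inhibitor of receptor tyrosine kinase signalling, stood at 10.99, 2.98, 16.0 and 10.5 CPM in liver and at 24.3, 44.0, 25.0 and 32.7 CPM in WAT. These points share libraries within a tissue and their scaling, so the coefficients describe these 12 libraries.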

How the data were processed

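The 12 libraries were RNA-seq of pooled RNA from 3 mice, sequenced as 100-base paired reads. Per the study's methods, the authors quantified reads with Salmon 1.2.1 against protein-coding transcripts of GENCODE M20 (mm10) and imported them in R 3.5.0 with tximport as length-scaled values. For each gene name they kept the entry with the largest total, so the values the authors deposited are estimated counts from Salmon per gene name, not whole numbers. Salmon shares ambiguous reads between similar transcripts, which can affect genes with close copies.

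Groups came from the deposited labels. From the counts, CPM and log2 changes with 0.5 CPM added were computed in Python 3.11.15 with pandas 2.3.3. Wilson intervals (CPM) and exact binomial intervals (ratios of 2 libraries) were computed with scipy 1.17.1 at 95%. Library totals of 1.94e+07 to 2.09e+07 set the precision. The call at 2-fold and NOISeq's procedure (rewritten in Python) were tested on simulated data. Alternatives were TMM factors (edgeR 4.0.16), median-of-ratios factors (DESeq2 1.42.0), 0.1 CPM added, all genes above 0, and NOISeq at q 0.9. No count model was fitted, since each group had 1 library. Gene positions came from GENCODE M21 (26300 of 26300 transcript identifiers matched) and promoters from RefSeq.

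The members, the lists and the rules were chosen with earlier results of these data known. Besides the 7 members, at most 4 genes of a list in a tissue were named, those with the largest change among those past 2-fold, as well as the 5 genes most alike by correlation, Nr3c1 and 3 GR targets. Other genes were named after their values were seen, as marked. A further gene of the enzyme list is not reported here, and no count or median of that list includes it.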

Additional observations from a re-analysis of the deposited data

Results flagged for a closer look

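These differences stand out because a gene past 2-fold in 1 comparison had a change of opposite sign in another tissue, genotype or treatment. With 1 library per group none of the differences was tested. For Idi1 the log2 change with CORT in GRf/f was 0.43 in gastrocnemius, -1.83 in liver and 0.38 in WAT, a difference of 2.25 between gastrocnemius and liver and of -2.21 between liver and WAT. Between the genotypes under CORT Idi1 stood at 1.37 in liver and -0.15 in WAT, a difference of 1.51.

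For Sqle the log2 change with CORT in GRf/f was 1.39 in gastrocnemius and -0.72 in liver, a difference of 2.11. Within gastrocnemius the change with CORT was 1.39 in GRf/f and -0.76 in GRmKO, and the difference of 2.15 is also that between the genotype contrasts under vehicle, 1.29, and under CORT, -0.86. It rests on 4 libraries with 17.3 to 59.9 estimated counts of Sqle. For Lss the change with CORT in GRf/f was -0.65 in liver and 1.09 in WAT, a difference of -1.74.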

How the results depend on the processing

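No member's called change turned its sign under any alternative run. Counts of the 7 genes called moved as follows. Under NOISeq the single higher call of Sqle in gastrocnemius was lost both with CORT in GRf/f and in GRmKO under vehicle (0 called, against 1.62% and 1.74% of all genes), while in WAT with CORT in GRmKO 2 were called higher (Hmgcs1, Lss, all genes 1.72%) and 1 lower (Fdft1, 2.65%). With 0.1 CPM added, 1 was called lower in gastrocnemius of GRmKO under CORT (Sqle, all genes 6.14%), 2 higher in liver of GRmKO under CORT (Idi1, Sqle, 3.98%) and 1 lower in WAT with CORT in GRmKO (Fdft1, 7.15%). Under TMM and under median-of-ratios factors 2 were called higher in WAT with CORT in GRf/f (Sqle, Lss, all genes 6.75% and 6.76%) and 3 in GRmKO (Hmgcs1, Sqle, Lss, 4.49% and 4.51%). Alternatives for the 20 enzymes and the further named genes were chosen after seeing the data: 7 of 20 enzymes were called higher in WAT with CORT in GRmKO under either scaling, instead of 3, while the share of all genes went from 3.46% to 4.49% and 4.51%, and in gastrocnemius NOISeq called 0 in any comparison. With CORT in GRmKO the member median in liver turned from 0.04 to -0.02 under TMM and -0.01 under median ratios, and Fdft1 in gastrocnemius from -0.09 to 0.07 and 0.05. No paired analysis was possible because each group had 1 library. Levels near 1 CPM, such as Sqle in gastrocnemius (17.3 to 59.9 estimated counts), limit what can be read from them.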
